A study of Mus musculus with 9 samples.

Results

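The comparison describes what bortezomib (BTZ), given together with an antibody against PDL1, was accompanied by in the RNA of mouse tumours that received the antibody in both groups. BTZ+anti-PDL1 tumours, replicates 1 to 3, were set against anti-PDL1 tumours, replicates 1 to 3, chosen by treatment label, so that 6 of the 9 tumours of the series entered the comparison. Of the 34745 genes in the table, 14506 passed a filter on low counts and were tested. All tumours grew from LLC (Lewis lung carcinoma) cells placed under the skin of male C57BL/6 mice of genotype WT, aged 6 to 8 in a unit that the labels leave out. Mice were randomised at a tumour volume near 100 mm3. The anti-PDL1 group received the antibody at 10 mg/kg, the BTZ+anti-PDL1 group received the antibody and BTZ at 0.5 mg/kg, and the third group, whose values are given as the background, received an isotype control at 10 mg/kg (labelled isotype by treatment, though its library titles read Blank). All agents were injected into the peritoneum. No group received BTZ alone, so an action of BTZ and an action of the combination cannot be told apart.

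PDL1 on tumour and myeloid cells engages PD-1 on T cells and restrains them, and an antibody against PDL1 lifts that restraint. Bortezomib blocks the chymotrypsin-like activity of the proteasome, the complex that degrades ubiquitin-tagged proteins, and in cultured cells it is known to induce chaperones, proteasome subunits and stress genes. Cytosolic DNA sensed by cGAS activates STING, the kinase TBK1 and the factor IRF3, which switch on type I interferon. Interferon acts through its receptor, JAK kinases and a factor complex that holds STAT2 and IRF9 on genes that carry an interferon-stimulated response element near their start.

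Library totals were 18516282 to 21509953 counts per tumour. The labelled cell type is lung adenocarcinoma, and the lung epithelial genes Nkx2-1, Sftpc, Sftpb, Sftpa1 and Scgb1a1 had no count in any of the 9 tumours, while the keratin gene Krt18 stood at 56.6 to 113 CPM in the 6 compared (CPM, counts scaled to a common library total, here after TMM scaling for library composition). Skeletal muscle genes, 24 in the list, were uneven between tumours of the same group, with summed levels of 92.9 to 3931 CPM in isotype, 225 to 1552 CPM in anti-PDL1 and 89.8 to 1259 CPM in BTZ+anti-PDL1. The fit was therefore repeated without the muscle-richest tumour of each group (isotype replicate 3, anti-PDL1 replicate 1 and BTZ+anti-PDL1 replicate 1). These are bulk tumour pieces, in which fewer cells of a type and less RNA per cell cannot be told apart.

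With edgeR's quasi-likelihood test, 2 genes were called higher in BTZ+anti-PDL1 at an adjusted p under 0.05 (0.0138% of genes tested) and 0 were called lower (0.0%), so that 0.0138% were called in either direction. At an unadjusted p under 0.05, 457 genes were higher (3.15%) and 387 lower (2.67%), 5.82% in all. Over all genes tested, 50.8% had a log2 fold change above 0 and the median was 0.003. Apart from those 2 genes, no gene named here passed the adjusted threshold in this fit. The lists are described by their counts and medians, and 3.15% higher and 2.67% lower are the background shares for every list below. DESeq2, run on the same counts, called 39 genes higher (0.305% of the genes it gave an adjusted p) and 21 lower (0.164%). Of its calls, 12 were type I interferon-stimulated genes, out of 40 on that list, namely Ifit3, Ifit3b, Ifit1, Irf7, Isg15, Mx1, Cmpk2, Usp18, Ifi44, Bst2, Herc6 and Oas3. The edgeR fit of only the 6 compared tumours called 9 genes higher and 3 lower, with Ifit3 (adjusted p = 0.0112) and Isg15 (adjusted p = 0.0486) among them. Without the 3 muscle-richest tumours, edgeR called 0 higher.

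**Figure D1:**
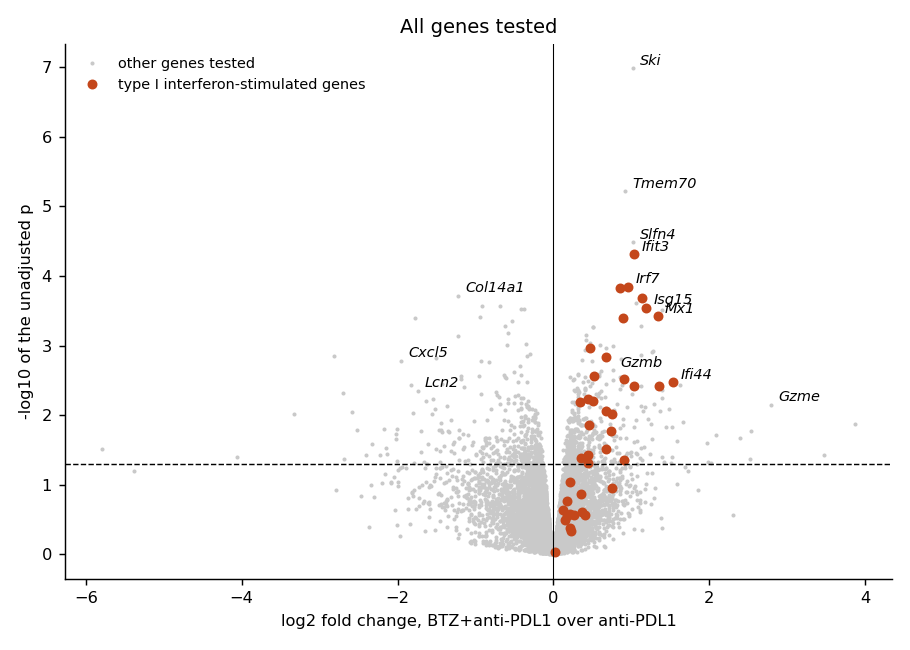
Each point is a gene, with the log2 fold change of BTZ+anti-PDL1 over anti-PDL1 on the x axis and -log10 of the unadjusted p of edgeR's quasi-likelihood test on the y axis. The dashed line marks an unadjusted p of 0.05, and the 40 type I interferon-stimulated genes (orange) all lie to the right of 0, with 26 above the line.

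Promoters of some type I interferon-stimulated genes are shown first, all of which hold the response element core. Genes of smaller p than some of those shown, such as Irf7 and Cmpk2, lack it upstream of the start and are named below. The sequences come from RefSeq (build GRCm38.p6), run 5′ to 3′ on the strand of the gene, and lie upstream of its start. Capitals mark the core of the interferon-stimulated response element, GAAANNGAAA, or its reverse complement TTTCNNTTTC. The genes shown are Ifit3 (chr19:34583348-34583441, plus strand), Isg15 (chr4:156200850-156200921, minus strand), Ifit1 (chr19:34640760-34640838, plus strand) and Bst2 (chr8:71537562-71537627, minus strand).
Ifit3: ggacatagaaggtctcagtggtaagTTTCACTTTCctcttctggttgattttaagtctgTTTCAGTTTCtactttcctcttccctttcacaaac
Isg15: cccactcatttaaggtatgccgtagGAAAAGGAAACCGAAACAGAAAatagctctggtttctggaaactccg
Ifit1: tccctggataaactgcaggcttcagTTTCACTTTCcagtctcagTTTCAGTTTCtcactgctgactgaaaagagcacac
Bst2: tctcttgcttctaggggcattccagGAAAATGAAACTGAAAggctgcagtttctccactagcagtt

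In Isg15 the capitals cover 3 overlapping cores, and in Ifit3, Ifit1 and Bst2 they cover 2. The stretch shown for Ifit3 recurs with the same letters upstream of its near copy Ifit3b. Among 10442 tested genes with a promoter sequence (250 bases before to 50 bases after the start), 402 held the core on either strand (3.85%). Of the 29 type I interferon-stimulated genes with such a sequence, 15 held it (51.7%). Irf7, Cmpk2, Oasl2, Ifit2 and Slfn4 did not hold these letters in the 250 bases before the start. Among genes higher in BTZ+anti-PDL1 at an unadjusted p under 0.05, 35 of 312 promoters held the core (11.2%), against 6 of 265 among genes that were lower (2.26%). Within the type I list, the share was 10 of 20 (50%) for members at an unadjusted p under 0.05 and 5 of 9 (55.6%) for the rest, and in the interferon-gamma list it was 11 of 18 (61.1%). With the type I list left out, the share among the higher genes was 25 of 292 (8.56%). The gamma-activated core TTCNNNGAA, which is its own reverse complement, was in 8.47% of all promoters, in 10.6% of those of the higher genes and in 8.3% of those of the lower ones. Both cores occurred together in 55 promoters of tested genes. A match describes the letters only.

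Type I interferon-stimulated genes had higher values in tumours with BTZ. All 40 genes of the list were tested, all 40 had a log2 fold change above 0, and 26 were higher at an unadjusted p under 0.05 (background 3.15%) and none lower. Their median log2 fold change was 0.49, with a range of 0.02 to 1.54. In 28 of the 40, every BTZ+anti-PDL1 tumour lay above every anti-PDL1 tumour, which was the case for 7.33% of all genes tested. No member passed the adjusted threshold in the edgeR fit. The summed level of the list was 1558, 1501 and 1897 CPM in the BTZ+anti-PDL1 tumours, 1243, 1185 and 1199 CPM with anti-PDL1 alone, and 849 to 1221 CPM in the isotype tumours. In all 17 alternative settings, including the fit without the muscle-richest tumours, 39 or 40 of the 40 stayed above 0, between 20 and 29 were higher at an unadjusted p under 0.05, and the median stayed between 0.42 and 0.58.

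Among antiviral effectors, Ifit3, of the same family as Ifit1, had 33.5, 31.0 and 36.5 CPM with BTZ and 17.8, 15 and 16.4 CPM with anti-PDL1 alone. The groups did not overlap, and the isotype tumours (12.2 to 17.5 CPM) lay close to anti-PDL1. Ifit3 thus had a log2 fold change of 1.04 ± 0.149 (standard error; edgeR adjusted p = 0.177). Ifit1 had 26.5, 31.3 and 34.7 CPM with BTZ against 18.7, 15.1 and 15.2 CPM (log2 fold change 0.91 ± 0.229). Ifit3b is nearly identical to Ifit3 and the way such reads were shared is not given, so its log2 fold change of 1.14 is uncertain.

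Isg15, a ubiquitin-like protein joined to target proteins, had 24.9, 18.5 and 26.7 CPM with BTZ and 10.4, 11 and 9.32 CPM without (log2 fold change 1.19 ± 0.215, edgeR adjusted p = 0.293). Usp18, the protease that removes Isg15 and dampens receptor signalling, had 15.6, 11.1 and 16.1 CPM against 8.8, 6.65 and 7.54 CPM (log2 fold change 0.89 ± 0.169). Both genes separated the groups, and in both the lowest BTZ+anti-PDL1 tumour was replicate 2. Herc6, the main ligase for Isg15 in mice, had a log2 fold change of 0.47 ± 0.101.

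The dynamin-like GTPase Mx1, a restriction factor for influenza viruses, had 15.1, 16.0 and 20.5 CPM with BTZ and 7.4, 5.23 and 7.73 CPM without, a log2 fold change of 1.34 ± 0.251 (edgeR adjusted p = 0.306). Laboratory C57BL/6 mice are known to carry a defective Mx1 gene. Mx2 had 5.61, 5.08 and 5.67 CPM against 3.1, 1.01 and 2.25 CPM. Bst2 (tetherin), which holds budding virus at the cell surface, had 113, 89.3 and 123 CPM against 80.9, 65.1 and 57.8 CPM (log2 fold change 0.67 ± 0.15). Ifi44 had the highest log2 fold change of the list, 1.54 ± 0.382, with 16.1, 11.9 and 29.6 CPM against 7.3, 8.12 and 4.4 CPM. None of these overlapped between the groups, and BTZ+anti-PDL1 replicate 3 was the highest tumour in Mx1, Mx2, Bst2 and Ifi44.

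Enzymes that act on nucleotides or sense RNA followed the same direction. Cmpk2, a mitochondrial nucleotide kinase, had 14.1, 13.8 and 16.8 CPM with BTZ and 9.45, 7.71 and 7.49 CPM without (log2 fold change 0.86 ± 0.142). Its genomic neighbour Rsad2 (viperin), which makes a chain-terminating nucleotide, had 19.9, 19.4 and 28.2 CPM against 14.6, 16.3 and 16.3 CPM (log2 fold change 0.51 ± 0.147). Genes of the oligoadenylate synthetase family, of which the enzymatically active members signal to RNase L, had log2 fold changes of 0.75 (Oas1a), 0.91 (Oas2), 1.03 (Oas3), 0.75 (Oasl1) and 0.68 (Oasl2). Oasl1 was the exception among them, since its groups overlapped. The RNA sensors had smaller values, with log2 fold changes of 0.36 for Ddx58 (RIG-I), 0.44 for Dhx58 (LGP2) and 0.22 for Ifih1 (MDA5).

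Of the transcription factors of the pathway, Irf7, which amplifies interferon production, had 29.0, 31.0 and 40.3 CPM with BTZ, 19.1, 17.0 and 15.6 CPM with anti-PDL1 alone and 13.8 to 18.5 CPM with isotype. The 2 compared groups lay well apart (log2 fold change 0.96 ± 0.157, edgeR adjusted p = 0.293). Stat2 had 89.6, 84.3 and 111 CPM against 69.2, 64.1 and 65.1 CPM, a log2 fold change of 0.52 ± 0.131. Irf9, its DNA-binding partner, had 40.5, 40.5 and 47.2 CPM against 41.5, 35.4 and 36.2 CPM, with groups that overlapped (log2 fold change 0.18 ± 0.122).

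The authors' FPKM values, which are per length and so allow genes to be ranked, placed Bst2 first on the list in BTZ+anti-PDL1 tumours, at 143 ± 22.2 FPKM (SD, n = 3). It was followed by Ifi27l2a at 43.4 ± 8.39 FPKM and Isg15 at 31.2 ± 5.7 FPKM. Ifi27l2a, Isg15, Samd9l (22.8 ± 2.2 FPKM), Stat2 (21.4 ± 3.08 FPKM) and Ifit3 (19.5 ± 1.51 FPKM) came within their spread of at least 1 neighbour in that order. In anti-PDL1 tumours Bst2 was also first (88.8 ± 15.7 FPKM), and Isg15 (13.5 ± 1.19 FPKM) stood below Samd9l (17.8 ± 1.69 FPKM).

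**Figure D2:**
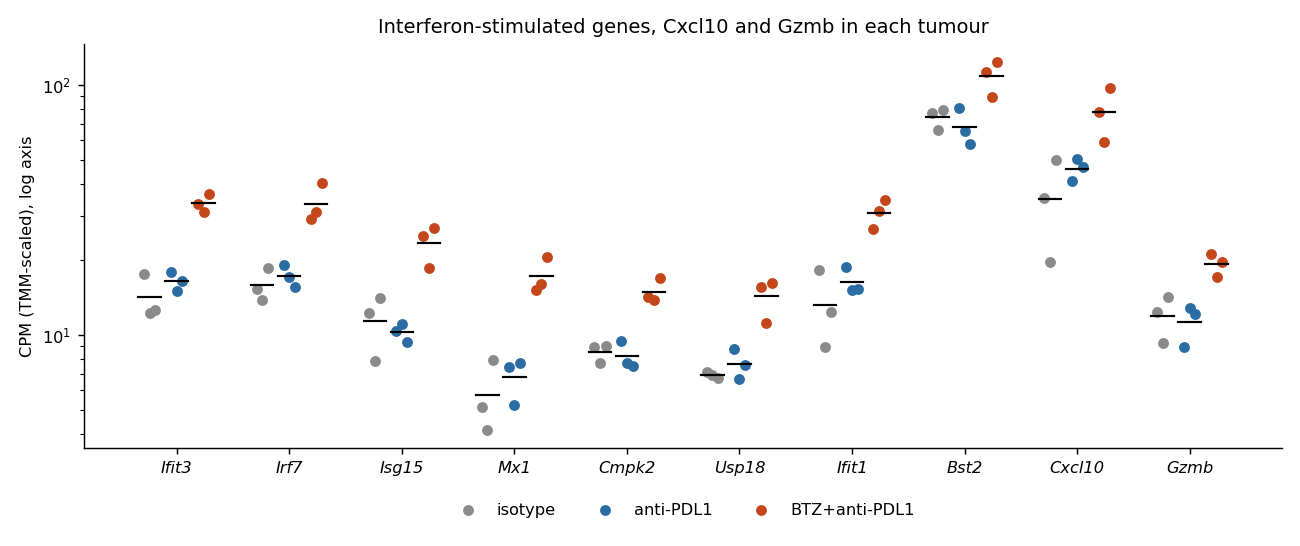
CPM of 10 genes on a log axis, with 1 point per tumour and a black bar at the mean of each group of 3 (grey isotype, blue anti-PDL1, orange BTZ+anti-PDL1). In all 10 genes the lowest orange point lies above the highest blue point, and all grey points lie below the lowest orange point. Several of the 10 were chosen by their p in the same tumours, so this separation is no further evidence. Orange lay above blue in 28 of the 40 type I interferon-stimulated genes and in 7.33% of all genes tested.

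Most tested receptor genes, and the relay genes Tmem173, Mb21d1, Tbk1 and Irf3, had log2 fold changes near 0, and most ligand genes were too scarce to test. Ifnb1, the interferon that STING signalling induces first, had values of 0.0 to 0.14 CPM in the 9 tumours, did not pass the filter. Ifna4 and Ifnl3 had no count in any tumour. Of 14 ligand and receptor genes 9 were tested, with 4 above 0, a median of -0.004, and 1 (Tyk2) higher at an unadjusted p under 0.05. The interferon-gamma gene Ifng, described below, was the ligand gene that passed the filter. It did so mainly through the BTZ+anti-PDL1 tumours (20, 19 and 11 counts, against 6, 11 and 8 with anti-PDL1 alone). Its value above 0 is therefore no evidence of a difference. The receptor genes Ifnar1 (log2 fold change -0.03 ± 0.0806) and Ifnar2 (-0.13 ± 0.079) were close to 0, and the receptor-bound kinase Tyk2 had 72.1, 77.2 and 71.1 CPM against 67.6, 61.1 and 58.0 CPM. Tmem173, which encodes STING, had 89.0, 90.4 and 93.9 CPM against 82.7, 87.5 and 83.6 CPM. That is a separation of groups of small size (log2 fold change 0.11 ± 0.0744). Mb21d1, which encodes cGAS, was 0.07 ± 0.336, Tbk1 was -0.04 ± 0.0764 and Irf3 was 0.02 ± 0.0952, each on the log2 fold change scale and overlapping between groups.

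Within the list for cGAS-STING and DNA sensing, 15 genes were tested, 13 had a log2 fold change above 0, and the median was 0.16. Of the 15, 4 were higher at an unadjusted p under 0.05 (background 3.15%) and none lower. Those 4 were Ifi203, Ifi204, Pyhin1 and Mndal, all PYHIN-family genes of 1 cluster on chromosome 1, whose products bind DNA. Ifi204 had 57.2, 55.7 and 61.9 CPM with BTZ against 43.7, 49.3 and 46.5 CPM (log2 fold change 0.33 ± 0.0955, edgeR adjusted p = 0.686). Ifi203 had 61.5, 60.5 and 77.2 CPM against 43.5, 54.9 and 37.8 CPM (log2 fold change 0.55 ± 0.188). PYHIN genes are alike in sequence, so the split of reads among them is uncertain, and interferon is known to induce several of them. Without the 3 muscle-richest tumours the median was 0.26. The summed level of all 15 was 735 to 800 CPM with BTZ and 642 to 684 CPM without.

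Genes of the interferon-gamma response mostly had values above 0 with overlapping groups. Of 29 tested, 27 had a log2 fold change above 0 and the median was 0.26. At an unadjusted p under 0.05, 1 was higher (Cxcl10), a share near the background of 3.15%, and none was lower. Cxcl10, a chemokine that draws activated T cells and that type I and type II interferon both induce, had 77.8, 59.2 and 96.8 CPM with BTZ and 41.2, 50.7 and 46.7 CPM without (log2 fold change 0.76 ± 0.321). Its partner Cxcl9, which depends more on interferon gamma, had 85.5, 56.5 and 104 CPM against 75.0, 76.5 and 56.3 CPM, with groups that overlapped (log2 fold change 0.24 ± 0.738). The ligand gene Ifng was scarce, at 1.0, 1.02 and 0.572 CPM against 0.3, 0.558 and 0.375 CPM, and its log2 fold change of 1.06 ± 0.627 was under 2 standard errors. In the isotype tumours Cxcl9 ran from 5.35 to 69.5 CPM. Without BTZ+anti-PDL1 replicate 3, the median of the list was 0.14.

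The isotype values place these lists differently, and since both contrasts use the anti-PDL1 tumours they are given side by side only. For type I interferon-stimulated genes the median log2 difference was 0.19 for anti-PDL1 against isotype and 0.49 for BTZ+anti-PDL1 against anti-PDL1. For the interferon-gamma response the medians were 0.63 and 0.26. For T cell genes they were 0.67 and 0.32. The first value of each pair involves an uneven isotype group, in which replicate 2 had list scores (the average centred log2 CPM of the list) of -1.47 for interferon-gamma and -1.9 for T cell genes. Isotype replicate 3, with 0.23 and 0.25, lay among the anti-PDL1 tumours (0.08 to 0.23 and 0.11 to 0.35).

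Antigen presentation genes mostly had small positive values. In the list for MHC class I and peptide loading, 18 of 21 were above 0 and the median was 0.25. At an unadjusted p under 0.05, 3 were higher (background 3.15%) and none lower. The 3 were the non-classical genes H2-T23 (log2 fold change 0.54 ± 0.187) and H2-T24 (0.6 ± 0.213) and the loading chaperone Pdia3 (0.17 ± 0.0634). H2-T23, which encodes the ligand of the receptor NKG2A, had 79.5, 68.7 and 86.3 CPM against 55.9, 56.7 and 48.7 CPM, without overlap. The classical genes H2-K1 (log2 fold change 0.32 ± 0.291) and H2-D1 (0.28 ± 0.185) and the shared light chain B2m (0.25 ± 0.197) overlapped between the groups. Reads of histocompatibility genes can map to several copies, so their values are uncertain. All 11 MHC class II genes were above 0 with a median of 0.35, and none had an unadjusted p under 0.05. The class I median was 0.15 without BTZ+anti-PDL1 replicate 3, and the class II median was 0.13 without BTZ+anti-PDL1 replicate 1.

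**Figure D3:**
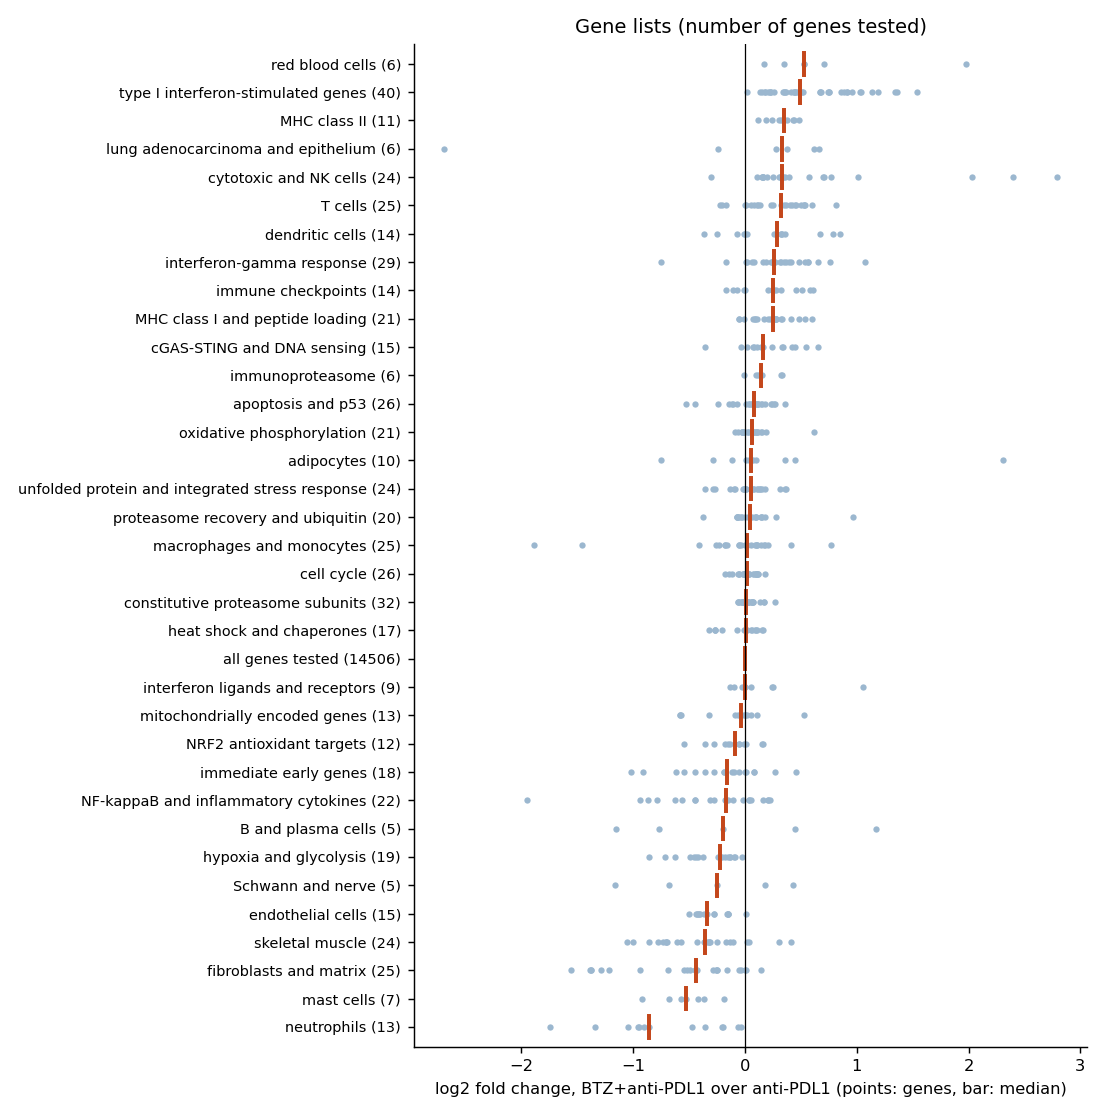
For each gene list, blue points are the log2 fold changes of its tested genes (BTZ+anti-PDL1 over anti-PDL1), the orange bar is their median, and the number tested is in brackets; the row for all genes tested shows its median only. Type I interferon-stimulated genes have a median of 0.49 with all 40 points right of 0, proteasome, heat shock and cell cycle lists sit near 0, and neutrophil genes have the lowest median, -0.86.

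The proteasome itself and the stress programmes that proteasome inhibitors induce in cultured cells had medians near 0. The labels do not give the time between treatment and sampling. Of 32 constitutive proteasome subunit genes, 22 were above 0 and the median was 0.012. At an unadjusted p under 0.05, 1 was higher, a share near the background of 3.15%, and none lower. That gene was Psma5, with 51.5, 40.3 and 45.0 CPM against 36.1, 40.1 and 37.7 CPM. Psmb5, which encodes the subunit that bortezomib binds, had 62.7, 56.2 and 53.8 CPM against 60.3, 55.7 and 55.4 CPM (log2 fold change 0.01 ± 0.0894). The groups overlapped, and the isotype tumours (54.9 to 65.5 CPM) lay in the same range.

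Heat shock genes had a median of 0.011, with 9 of 17 above 0 and none at an unadjusted p under 0.05 in either direction. The inducible chaperone gene Hspa1a had 14.8, 8.23 and 15.8 CPM with BTZ and 15.1, 16.1 and 15.6 CPM without, and it has a near-identical neighbour copy. In the unfolded protein and integrated stress response list, 15 of 24 were above 0 with a median of 0.05, and 1 was higher at an unadjusted p under 0.05 and none lower. That gene, Pdia6, a disulfide isomerase of the endoplasmic reticulum, had 832, 846 and 809 CPM against 728, 714 and 757 CPM, separated groups with a log2 fold change of 0.18 ± 0.0602. The isotype tumours, at 818, 812 and 799 CPM, lay near BTZ+anti-PDL1, so the anti-PDL1 tumours were the low group. The antioxidant targets of NRF2 had a median of -0.089 (3 of 12 above 0), and Hmox1, heme oxygenase, had 330, 164 and 402 CPM against 274, 457 and 578 CPM. Nfe2l1, which encodes the factor that restores proteasome genes after inhibition, stood on 2 count levels that followed neither group, with 235 CPM in BTZ+anti-PDL1 replicate 2 and 248 CPM in isotype replicate 2 against 53.5 to 63.4 CPM in the other 7 tumours. Its list, proteasome recovery and ubiquitin, had 11 of 20 above 0 and a median of 0.048, with the ubiquitin gene Rps27a and Zfand5 higher at an unadjusted p under 0.05 and none lower.

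The immunoproteasome, whose subunits interferon induces, had a median of 0.14 over 6 genes with none at an unadjusted p under 0.05. Psmb10 had 67.8, 51.7 and 64.0 CPM against 51.5, 51.3 and 43.9 CPM (log2 fold change 0.32 ± 0.208), and Psmb9 overlapped (0.33 ± 0.389). NF-κB, whose activation by loss of its inhibitor needs the proteasome, was represented by 22 genes. At an unadjusted p under 0.05, 2 were higher and 2 lower (background 3.15% and 2.67%), and the median was -0.17. That median was -0.32 when anti-PDL1 replicate 1 was left out and -0.098 when replicate 2 of the same group was. The higher ones were subunit genes, Nfkb2 (log2 fold change 0.21 ± 0.0692) and Relb (0.21 ± 0.0931). The lower ones were the chemokine genes Cxcl5 and Ccl4. Cxcl5, which attracts neutrophils, had 1.65, 1.66 and 2.45 CPM with BTZ, 2.95, 11.2 and 8.1 CPM with anti-PDL1 and 8.19 to 12 CPM with isotype (log2 fold change -1.95 ± 0.438, edgeR adjusted p = 0.494). The BTZ+anti-PDL1 tumours were the lowest of all 9.

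Genes of cytotoxic and NK cells mostly had higher values in BTZ+anti-PDL1 tumours, granzyme genes among them. Of 24 genes tested, 23 were above 0 and the median was 0.33. At an unadjusted p under 0.05, 4 were higher (background 3.15%) and none lower. Gzmb, the granzyme that cleaves caspases in target cells, had 21.1, 17.0 and 19.5 CPM with BTZ, 8.9, 12.8 and 12.1 CPM with anti-PDL1 alone and 9.3 to 14.2 CPM with isotype. Every BTZ+anti-PDL1 tumour lay above the other 6 (log2 fold change 0.77 ± 0.187, edgeR adjusted p = 0.606). Prf1, the pore protein that lets granzymes in, had 5.61, 6.3 and 6.5 CPM against 5.05, 5.33 and 4.5 CPM (log2 fold change 0.31 ± 0.249).

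The other 3 at an unadjusted p under 0.05 were Gzmd, Gzme and Gzmf, which lie side by side with Gzmb on chromosome 14 and are near-identical copies of each other, so the split of reads among them is uncertain. Gzme had 4.0, 5.93 and 0.781 CPM with BTZ and 0.5, 0.609 and 0.421 CPM with anti-PDL1 (log2 fold change 2.79 ± 0.794). Gzmf had 4.35, 14.2 and 1.56 CPM against 1.75, 1.12 and 0.937 CPM, and Gzmd had 5.46, 13.8 and 1.46 CPM against 2.55, 1.42 and 1.08 CPM. In all 3, BTZ+anti-PDL1 replicate 2 was the highest and replicate 3 the lowest of its group. Replicate 3 lay above the anti-PDL1 tumours in Gzme and among them in Gzmd and Gzmf, and the isotype tumours (1.15 to 5.39 CPM for Gzme) spanned a range like that of BTZ+anti-PDL1.

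T cell genes had no member at an unadjusted p under 0.05. Of 25 tested, 21 were above 0 with a median of 0.32, which was 0.16 without the 3 muscle-richest tumours. Cd8a had 5.81, 5.61 and 6.4 CPM with BTZ against 6.35, 5.02 and 5.1 CPM (log2 fold change 0.11 ± 0.659). The transcription factor gene Tcf7 had 5.96, 5.98 and 4.27 CPM against 2.85, 4.31 and 4.26 CPM, with groups that overlapped narrowly (0.5 ± 0.256). Among checkpoint genes, Cd274, which encodes PDL1, had 27.7, 25.1 and 41.9 CPM against 26.0, 33.0 and 36.6 CPM (log2 fold change -0.01 ± 0.267), and Pdcd1, which encodes PD-1, was 0.24 ± 0.664. The costimulatory ligand gene Cd80 had 7.86, 6.62 and 6.5 CPM against 4.45, 5.58 and 4.68 CPM, without overlap (0.51 ± 0.23). Over the 14 checkpoint genes, 10 were above 0 with a median of 0.25 and none at an unadjusted p under 0.05, and the median was 0.11 without BTZ+anti-PDL1 replicate 1.

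**Figure D4:**
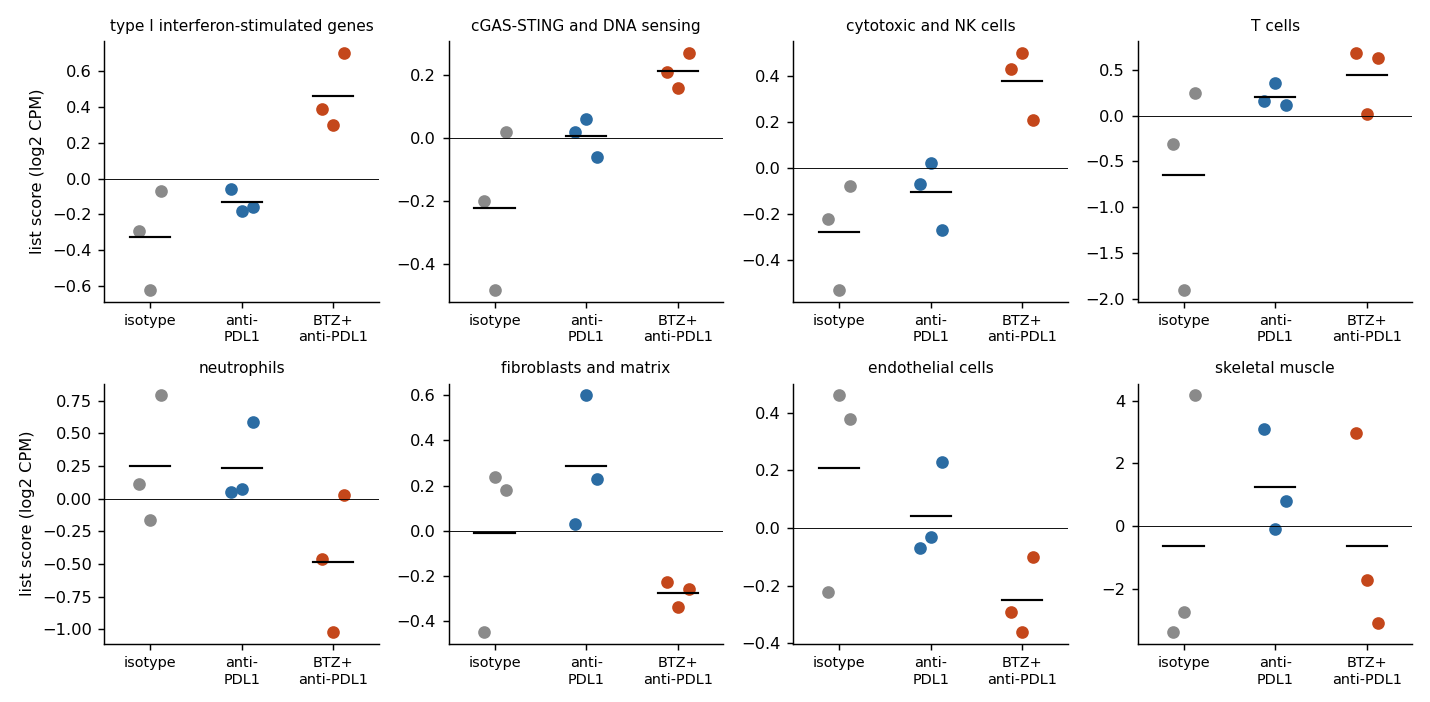
List score of each tumour (each gene's log2 CPM centred on its average over the 9 tumours, then averaged over the list) for 8 lists, with 1 point per tumour, a black bar at the group mean, and a y axis of its own in each panel. The type I interferon score is 0.3 to 0.7 in BTZ+anti-PDL1 and -0.18 to -0.06 in anti-PDL1, while the skeletal muscle score spans -3.08 to 2.96 within BTZ+anti-PDL1.

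Myeloid lists differed by cell type. Neutrophil genes had lower values in BTZ+anti-PDL1 tumours: 13 of the list's 18 genes passed the filter, none was above 0, 4 were lower at an unadjusted p under 0.05 (background 2.67%) and none higher, and the median was -0.86. Those 4 were Lcn2, Retnlg, S100a8 and S100a9. The groups did not overlap in this direction in 4 of the 13, the same genes, against 6.99% of all genes tested. S100a9, a calcium-binding protein stored in neutrophils, had 14.5, 7.96 and 19.8 CPM with BTZ, 28.3, 23.5 and 35.9 CPM with anti-PDL1 and 20.2 to 46.1 CPM with isotype (log2 fold change -1.05 ± 0.387, edgeR adjusted p = 0.849). Lcn2 (lipocalin-2) had 1.2, 0.481 and 1.77 CPM against 3.85, 3.96 and 3.75 CPM (-1.74 ± 0.468). Levels were low, the neutrophil-defining gene Ly6g had 0.0 CPM in all 3 BTZ+anti-PDL1 tumours and at most 0.355 CPM with anti-PDL1 alone, and the granule genes Camp, Ngp and Ltf were under the filter. Without anti-PDL1 replicate 3, the tumour highest in S100a8 and S100a9 in its group, the median of the list was -0.41.

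Macrophage genes as a list were level, with 13 of 25 above 0, a median of 0.021 and, at an unadjusted p under 0.05, 1 higher and 2 lower. The general marker Adgre1 (log2 fold change -0.18 ± 0.218) overlapped between groups. The higher gene was Ly6c2, a marker of inflammatory monocytes, with 11.9, 11.1 and 9.11 CPM against 4.8, 8.02 and 5.95 CPM (0.77 ± 0.273). The lower ones were the scavenger receptor Marco (-1.46 ± 0.569) and Siglec1, a sialic acid receptor that interferon induces, with 98.2, 99.7 and 100 CPM against 119, 124 and 115 CPM (-0.26 ± 0.115). Cd163, a haemoglobin scavenger receptor of resident-type macrophages, had 10.2, 4.11 and 4.94 CPM with BTZ and 19.1, 22.7 and 29.5 CPM without; the isotype tumours ran from 1.47 to 22.1 CPM. Siglec1 was not on the interferon list.

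Among dendritic cell genes 9 of 14 were above 0, with a median of 0.29 (0.18 without BTZ+anti-PDL1 replicate 3). Bst2, counted in the interferon list too, was the 1 higher and Zbtb46, a factor of conventional dendritic cells, the 1 lower at an unadjusted p under 0.05. Mast cell genes were all below 0 (7 of 7, median -0.53), with none at an unadjusted p under 0.05. The median was -0.86 without the 3 muscle-richest tumours and -0.27 with a muscle covariate.

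Stromal genes had lower values in BTZ+anti-PDL1 than in anti-PDL1 tumours. In the fibroblast and matrix list, 22 of 25 genes were below 0 and the median was -0.44. At an unadjusted p under 0.05, 4 were lower (background 2.67%) and none higher. In 8 the groups did not overlap in that direction (6.99% of all genes tested). The list scores were -0.34 to -0.23 with BTZ, 0.03 to 0.6 with anti-PDL1 and -0.45 to 0.24 with isotype. The BTZ+anti-PDL1 scores thus lay within the isotype range. Col14a1, a collagen that organises fibrils, had the smallest p of all lower genes, with 18.0, 12.6 and 11.1 CPM with BTZ, 36.9, 33.4 and 27.1 CPM with anti-PDL1 and 12.9, 13.4 and 18.0 CPM with isotype. The BTZ+anti-PDL1 tumours matched the isotype level and the anti-PDL1 tumours stood above both (log2 fold change -1.22 ± 0.208, edgeR adjusted p = 0.293). Postn (periostin), made by activated fibroblasts, had 71.2, 72.3 and 74.2 CPM against 88.4, 220 and 110 CPM (-0.94 ± 0.362), with anti-PDL1 replicate 2 far above the others. Sparc had 525, 482 and 570 CPM against 608, 900 and 708 CPM (-0.49 ± 0.192). Pi16, a marker of fibroblasts around vessels, was -1.56 ± 0.472. Col1a1 ran from 442 to 1348 CPM within anti-PDL1 and its groups overlapped. The proteoglycan genes Dcn (0.0 ± 0.295) and Lum (0.14 ± 0.347) did not share the direction.

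Endothelial genes were below 0 in 14 of 15, with 2 lower at an unadjusted p under 0.05 (background 2.67%), none higher and a median of -0.34. Vwf, the clotting factor stored by endothelium, had 22, 26.2 and 26.9 CPM against 31.8, 31.2 and 34.4 CPM (log2 fold change -0.37 ± 0.117), and Cdh5, the junction protein of vessels, had 57.6, 59.1 and 71.1 CPM against 78.6, 77.8 and 93.7 CPM (-0.41 ± 0.169). Both separated the groups. Without anti-PDL1 replicate 3 the endothelial median was -0.17. Hypoxia and glycolysis genes were below 0 in all 19 tested, with 1 lower at an unadjusted p under 0.05 (Aldoa, -0.22 ± 0.0743), none higher and a median of -0.22 (-0.35 without the 3 muscle-richest tumours). The isotype tumours varied widely, with Ndrg1 at 139 to 427 CPM, against 172 to 262 CPM in anti-PDL1 and 111 to 185 CPM in BTZ+anti-PDL1.

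Among genes with names other than predicted loci, those with the smallest p in the lower direction included genes of adhesion and signalling. Fzd1, a Wnt receptor, had 5.26, 5.13 and 6.4 CPM with BTZ against 9.1, 11.6 and 11.1 CPM (log2 fold change -0.92 ± 0.165). Ncam1, a cell adhesion molecule, had 10.8, 10.5 and 11.4 CPM against 17.5, 17.3 and 17.7 CPM (-0.68 ± 0.122). Slc39a14, a zinc and iron importer, was -0.42 ± 0.0756, and the kinase gene Map3k1 was -0.38 ± 0.0685. Pde4b, a phosphodiesterase of cyclic AMP, had a log2 fold change of -0.62, the actin-binding Dbn1 -0.58, the secreted Srpx2 -1.22, the lysosomal enzyme Hgsnat -0.35 and the Notch antagonist Numb -0.6. Against isotype, BTZ+anti-PDL1 had log2 differences of -0.34 (Fzd1), -0.27 (Ncam1), -0.25 (Slc39a14) and -0.11 (Map3k1). They were -0.5 for Pde4b, -0.62 for Dbn1, -0.52 for Srpx2, -0.11 for Hgsnat and -0.13 for Numb. Anti-PDL1 tumours stood above isotype on average in each of these except Dbn1 (log2 difference -0.04). In all 10 such genes, Col14a1 included, the edgeR adjusted p values lay between 0.293 and 0.445. In each, the BTZ+anti-PDL1 tumours lay below all anti-PDL1 tumours, against 6.99% of all genes tested. The genes were chosen by their p in the same tumours, so this separation is no further evidence.

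The 2 genes that rose at the adjusted threshold were Ski and Tmem70. Ski (ENSMUSG00000029050, mm10 chromosome 4, 155154075 to 155222592, minus strand) encodes a repressor of TGF-beta signalling. It had 184, 161 and 177 CPM with BTZ and 86.6, 82.4 and 87.7 CPM with anti-PDL1, a log2 fold change of 1.02 ± 0.0727 (edgeR adjusted p = 0.0015). Tmem70 (ENSMUSG00000025940, mm10 chromosome 1, 16665207 to 16678275, plus strand) encodes an assembly factor of mitochondrial ATP synthase. It had 41.6, 34.4 and 32.9 CPM against 18.7, 19.4 and 19.7 CPM (0.92 ± 0.103, edgeR adjusted p = 0.044). In both genes the isotype tumours (172 to 192 CPM for Ski, 35.2 to 39.1 CPM for Tmem70) shared the level of BTZ+anti-PDL1, so the anti-PDL1 tumours were the low group. Without the 3 muscle-richest tumours the edgeR adjusted p was 0.163 for Ski and 0.334 for Tmem70, with log2 fold changes of 0.99 and 0.78. Leaving out any 1 tumour kept the Ski call, and 6 of the 9 such fits lost that of Tmem70.

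Both genes belonged to 110 tested genes whose 9 tumours fell on 2 separate count levels with no values between. For this a gap of at least 0.5 on the log2 scale and at least 2 times the range within either level was required, with at least 2 tumours on each level. The median ratio of the levels was 2.53, and it was 2.08 for Ski and 1.9 for Tmem70. In 103 of the 110 the levels followed neither of the compared groups. In 6, all BTZ+anti-PDL1 tumours were on the upper and all anti-PDL1 tumours on the lower level, among them Ski, Tmem70, Atxn7l3, Sike1 and Ss18, and in 1, Mfsd7b, it was the reverse. How reads were assigned to overlapping or copied genes is not given in the sources used here, and its part in these levels was not tested. With these 110 genes left out, 0 genes passed the adjusted threshold in edgeR (at an unadjusted p under 0.05, 449 were higher and 386 lower), and the smallest adjusted p was 0.335. Of the DESeq2 calls on all genes, 6 were on 2 count levels, Ski and Tmem70 among them. None of the 40 type I interferon-stimulated genes was among the 110.

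**Figure D5:**
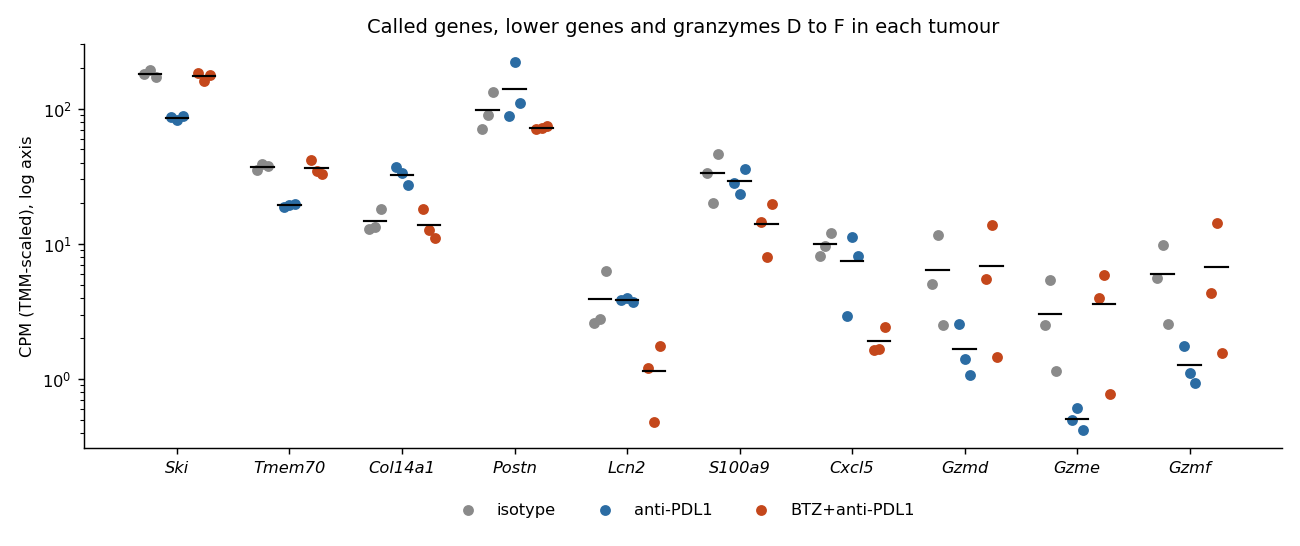
CPM of 10 genes on a log axis, with 1 point per tumour and a black bar at the mean of each group of 3 (grey isotype, blue anti-PDL1, orange BTZ+anti-PDL1). In Ski, Tmem70 and Col14a1 the orange and grey points share a level apart from the blue ones, whereas in Lcn2 and Cxcl5 the orange points are the lowest.

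Growth, death and energy genes complete the comparison. Cell cycle genes had a median of 0.02, with 15 of 26 above 0 and none at an unadjusted p under 0.05 in either direction. In the apoptosis and p53 list, 19 of 26 were above 0, with a median of 0.079, 3 higher (Casp8, Bax and Casp4, log2 fold changes 0.23, 0.24 and 0.36) and 2 lower (Pmaip1 and Bad, -0.45 and -0.53) at an unadjusted p under 0.05. Pmaip1 encodes NOXA, a protein that proteasome inhibitors are known to stabilise and induce in cultured cells, and had 5.51, 5.29 and 4.74 CPM against 8.3, 6.5 and 6.42 CPM. Oxidative phosphorylation genes of the nucleus had a median of 0.066 with none at an unadjusted p under 0.05. Of 13 mitochondrially encoded genes, 3 subunit genes of complex I were lower at an unadjusted p under 0.05, mt-Nd1 (-0.58 ± 0.167), mt-Nd5 (-0.58 ± 0.184) and mt-Nd3 (-0.57 ± 0.232). Against isotype, their log2 differences in BTZ+anti-PDL1 were -0.33, -0.06 and -0.44. The list had a median of -0.034, and mt-Cytb, from the same genome, was 0.11 ± 0.0995.

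Genes of other tissues that a tumour piece can hold varied within groups. Red blood cell genes were above 0 in 6 of 6 (median 0.53, and -0.8 without BTZ+anti-PDL1 replicate 1), and in that tumour Hba-a1, which has a near-identical copy, had 64.0 CPM against 7.27 and 13.7 CPM in its group. Skeletal muscle genes had a median of -0.36 with none at an unadjusted p under 0.05, and that median was -4.49 when BTZ+anti-PDL1 replicate 1 was left out and 0.86 when anti-PDL1 replicate 1 was. Adipocyte genes had a median of 0.055, which ran from -0.5 with the replicate block to 1.2 with a muscle covariate, and 12 of 14 keratinocyte genes were under the filter. In the type I interferon list, the muscle-rich BTZ+anti-PDL1 replicate 1 had a summed level between those of the other 2 tumours of its group.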

How the data were processed

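RNA of subcutaneous LLC tumours was sequenced, with 3 separate tumours per group. The deposited table gives counts per gene, and the authors' FPKM values per gene stand beside the counts. Per the submitters' processing notes, HISAT2 2.0.4, StringTie 1.3.3b and build mm10 were used. The counting tool, annotation release and strand setting are not given in the sources used here, so reads of overlapping, antisense and near-identical genes may be shared or lost. Library totals ran from 18516282 to 21509953 counts.

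From the deposited counts, genes passing filterByExpr (minimum count 10) were scaled by TMM and fitted in edgeR 4.0.16 (R 4.3.3) with 3 group means over all 9 tumours, leaving 6 residual degrees of freedom. Robust quasi-likelihood F tests compared BTZ+anti-PDL1 with anti-PDL1, with Benjamini-Hochberg adjustment over 14506 genes and a threshold of 0.05. Standard errors were derived from the log2 fold change and its F statistic. FPKM served only to rank genes by level. The procedure was tested on simulated counts with known changes. Alternatives were DESeq2 1.42.0, RLE size factors, no low-count filter, only the 6 compared tumours, a muscle covariate, a replicate block, leaving out each tumour, leaving out the 3 muscle-richest tumours and, chosen after seeing the data, leaving out genes on 2 count levels.

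The comparison, the gene lists and the tests were chosen with earlier results of these data known. Named genes were those called or of smallest p in each direction (predicted loci left out), up to 4 genes of smallest p per list, members of the type I interferon, cGAS-STING and cytotoxic lists, and a panel tied to the study's title. A gene of that panel is not reported here. The undetected marker genes, Ifnar1, Nfe2l1, Adgre1, Col1a1, Dcn, Lum, Bad and the other genes on 2 count levels were named after their values were seen. Promoter sequences were taken from RefSeq (GRCm38.p6) by gene symbol.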

Additional observations from a re-analysis of the deposited data

How the results depend on the processing

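The number of genes called higher in BTZ+anti-PDL1 was 2 with edgeR on all 9 tumours, 39 with DESeq2, 9 in the fit of only the 6 compared tumours, 4 with no filter on low counts, and 0 both without the 3 muscle-richest tumours and without the genes on 2 count levels. Leaving out each tumour gave 1 to 6 genes. The number called lower was 0, against 21 with DESeq2, 3 with only the 6 compared tumours and 0 to 2 when each tumour was left out. The 387 genes lower at an unadjusted p under 0.05 became 596 with only the 6 compared tumours and 249 to 495 when each tumour was left out. The neutrophil median of -0.86 ran from -0.99 to -0.41 when each tumour was left out. The cause of these shifts was not tested, apart from those that follow from fewer genes or tumours.

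Same-numbered tumours of the 2 groups had correlations of 0.0178 to 0.393 between their deviations, and 2 of the 6 correlated best with their own number, so the numbers were not taken as pairs. With the replicate block, 1 gene (Ski) was called higher. Of the genes named, 10 turned direction when a single tumour was left out, also Nfe2l1 and Hba-a1 with log2 fold changes of 0.97 and 0.53 in the fit of all tumours. The values ran from -0.27 to 0.13 for Cd274, -0.1 to 0.15 for Dcn, -0.91 to 0.98 for Hba-a1, -0.08 to 0.03 for Ifnar1, -0.05 to 0.07 for Irf3, -0.11 to 0.37 for Lum, -0.11 to 0.21 for Mb21d1, -0.04 to 1.32 for Nfe2l1, -0.08 to 0.54 for Pdcd1 and -0.06 to 0.06 for Psmb5. With a muscle covariate Cd274 was 0.04, Dcn -0.09 and Ifnar1 0.01. Without the 3 muscle-richest tumours Hba-a1 was -0.63, Irf3 -0.03 and Psmb5 -0.02. Dcn was -0.02 with the replicate block and -0.0 with DESeq2 and with RLE size factors.

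With 3 tumours per group and 6 residual degrees of freedom, fold changes on the log2 scale had a median error of 0.138 (SE over all genes tested), and genes of low count were less precise.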

Other observations

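Schlafen and apolipoprotein L genes, 2 families in which several members are known to respond to interferon, were examined after their values had been seen. All 7 tested Slfn genes had a log2 fold change above 0, with a median of 0.29 and 3 higher at an unadjusted p under 0.05 (3.15% of all genes tested), and in 5 the BTZ+anti-PDL1 tumours lay above all anti-PDL1 tumours (7.33% of all genes tested). Slfn4, known from myeloid cells, had 69.6, 84.5 and 79.5 CPM with BTZ and 32.9, 36.7 and 45.3 CPM with anti-PDL1 alone, and the isotype tumours had 33.4 to 43.1 CPM. Its groups lay far apart (log2 fold change 1.02 ± 0.14, edgeR adjusted p = 0.16). All 6 tested Apol genes were above 0, with a median of 0.92 and 2 higher at an unadjusted p under 0.05, the near-identical pair Apol9a (log2 fold change 1.28) and Apol9b (1.12), between which reads cannot be told apart with certainty. Parp genes, examined in the same way, were nearer 0. Of 12 tested, 9 were above 0 and 1 was higher at an unadjusted p under 0.05, with a median of 0.13. Slfn5 (log2 fold change 0.02), Parp9, Parp12 and Parp14 are also on the type I list.

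Frizzled receptors and laminins had lower values, also examined after the values had been seen. Of 7 tested Fzd genes 2 were above 0 and 3 were lower at an unadjusted p under 0.05 (2.67% of all genes tested), with a median of -0.47. The 3 were Fzd1 (log2 fold change -0.92), Fzd4 (-0.73) and Fzd2 (-0.56). Of 9 laminin genes 1 was above 0 and 2 were lower at an unadjusted p under 0.05, with a median of -0.23. Of 31 collagen genes 9 were above 0, 3 were lower and none higher at an unadjusted p under 0.05, and the median was -0.25. No member of these families passed the adjusted threshold in edgeR.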
